A study of Homo sapiens with 4 samples.

Results

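The sites described here are Fra-1 peaks that the authors called against both of their controls, input DNA and an IgG ChIP, and that also carry a DDX5 peak called against input. They were chosen by position: a Fra-1 peak over input on chromosomes 1 to 22 or X that overlaps, by at least 1 bp, a Fra-1 peak over IgG and a DDX5 peak over input. The rule gave 1447 sites among the 30571 Fra-1 peaks over input, 30405 of which lie on those chromosomes. They are called common sites below. The word common rests on position in lists from separate ChIP experiments, and the IgG call concerns Fra-1: a DDX5 peak over IgG was listed at only 9 of these sites.

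The 4 libraries came from untreated BT549 cells, a human breast cancer line without oestrogen receptor alpha. They were 1 ChIP with an antibody to Fra-1, 1 ChIP with an antibody to DDX5, 1 ChIP with normal rabbit IgG, and 1 library of input DNA, meaning sonicated chromatin that was not immunoprecipitated. Every group is thus 1 library of 1 cell line, so no difference between antibodies or controls was tested, no p-value is given, and the intervals below cover counting error or the spread over sites only. The number of reads in each library is unknown. In the deposited lists over IgG the authors' pileups were scaled down to the IgG library, by 0.884 for Fra-1 and 0.998 for DDX5, which gives the relative depths.

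Fra-1, the product of FOSL1, is a Fos-family protein. It cannot bind DNA as a homodimer and pairs with a Jun protein to form AP-1, which reads a short palindromic element mostly in enhancers and promoters, and it is known for promoting motility and invasion in breast cancer cells that lack oestrogen receptor. DDX5, also called p68, is a DEAD-box RNA helicase that works in RNA processing and is recruited to chromatin through transcription factors and nascent RNA. The series set out to separate binding events of either protein from events common to both. Genes and sequence at the sites were not analysed here, so sites are named by their hg19 position.

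The common sites had tall Fra-1 peaks and lower DDX5 peaks. The pileup, which is the authors' depth of ChIP fragments at the summit, had a median of 91 for Fra-1 (quartiles 56 and 138, lowest 18, highest 323). For DDX5 the median pileup at the same sites was 21 (quartiles 18 and 26, lowest 11, highest 106). The fold enrichment, the authors' ratio of the pileup plus 1 to the local control level plus 1, had a median of 15.2 for Fra-1 over input and 7.29 for the same protein over IgG, and of 4.08 for DDX5 over input. Between percentiles 5 and 95, the folds over input ran from 5.36 to 32.9 for Fra-1 and from 2.92 to 6.09 for DDX5, and their full ranges were 2.81 to 55.9 and 1.75 to 18.9. All of these values entered the choice of the sites and are given as a description.

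Of the common sites, 1200 (82.9%) reached 8-fold for Fra-1 over input, where 29.6% of all Fra-1 peaks over input did, and 54.5% of the 13952 Fra-1 peaks called over both controls without a DDX5 peak. Over IgG, 638 (44.1%) reached 8-fold for Fra-1, against 38.8% of the Fra-1 list over IgG and 39.98% of the sites without DDX5. The median Fra-1 folds were 15.2 at the common sites and 8.49 at the sites without DDX5 over input, but 7.29 and 6.996 over IgG. For DDX5 over input the count was 17 (1.17%), against 2.30% of the DDX5 list over input. A single common site was at least 8-fold in all 3 lists. The rule used all 3 contrasts. In the background, 50.6% of Fra-1 peaks over input overlapped a Fra-1 peak over IgG, 21.7% overlapped a DDX5 peak over input, and of the 15399 Fra-1 peaks called over both controls 9.40% (95% exact binomial interval 8.94% to 9.87%) overlapped a DDX5 peak and so became common sites.

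When all 4 libraries were put at the depth of the IgG library, the ChIP medians at the common sites lay above those of the controls. The rule fixed this order for Fra-1 over both controls and for DDX5 over input. Fra-1 stood at 80.5 fragments and DDX5 at 20.9, against 10.0 for IgG and 4.28 for input. The 2 controls also differed from each other. The IgG level was a median of 2.23 times the input level at the common sites (95% binomial interval of the median 2.17 to 2.27), against 1.17 times (1.17 to 1.21) at the Fra-1 peaks called over both controls that had no DDX5 peak. The IgG level was at least 2 times the input level at 60.7% of common sites (58.2% to 63.3%), against 15.2% (14.6% to 15.8%) of the sites without DDX5. Input alone gave medians of 4.28 in both sets. Both sets needed a Fra-1 call over IgG, so a high IgG level could pass only under a taller Fra-1 peak. The median Fra-1 pileup was 91 at the common sites and 48 at the sites without DDX5, and the ratios were not compared at equal pileup. A control level is the caller's local background, computed here from the pileup and the fold, and it cannot fall below a genome-wide minimum. That minimum was reached for input at 8.64% of common sites, against 15.0% of the sites without DDX5, and for IgG at 0.346% of common sites, against 9.63%.

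**Figure D1:**
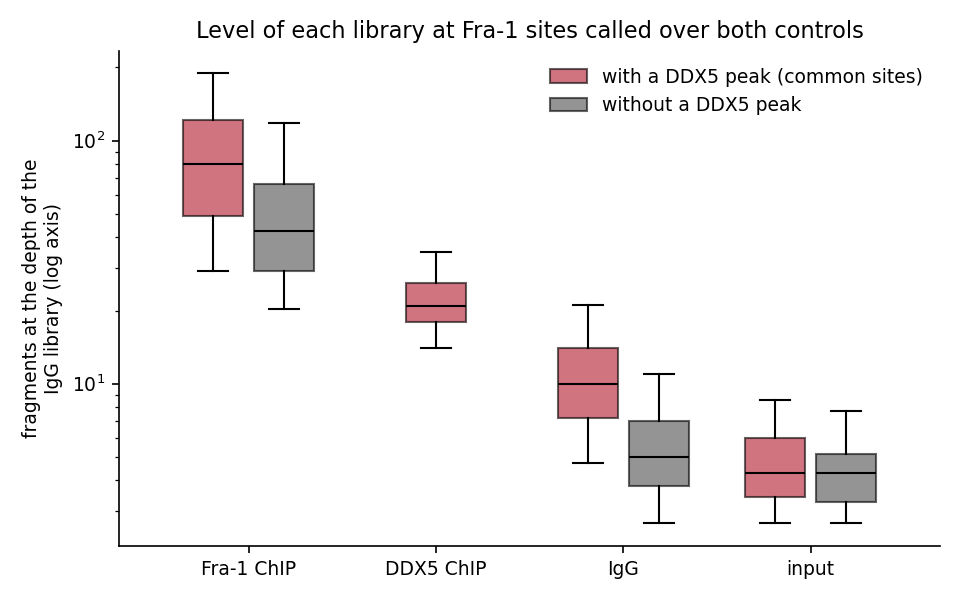
Fragments per site on a log axis, at the depth of the IgG library, in each of the 4 libraries (1 library each). Boxes show the median and quartiles over sites and whiskers the central 90%; red boxes are the 1447 common sites and grey boxes the 13952 Fra-1 sites called over both controls without a DDX5 peak, for which no DDX5 level is listed. The medians of common sites are 80.5 for Fra-1, 20.9 for DDX5, 10.0 for IgG and 4.28 for input, and the red and grey boxes differ least for input.

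The DDX5 level at the common sites can be set beside the IgG level although the authors listed few DDX5 peaks over IgG. At 899 of the common sites (62.1%) the DDX5 summit lay within 100 bp of the Fra-1 summit over IgG, the position to which the IgG level belongs. There the ratio of the DDX5 pileup plus 1 to the IgG level plus 1, at equal depth, had a median of 2.0, with quartiles of 1.63 and 2.55. It was at least 1.5 at 83.0% of these sites, at least 3 at 12.6%, and under 1 at 8 sites. The DDX5 pileup at a called summit is a local maximum, which favours a higher ratio by construction. The IgG level is the caller's local background near the Fra-1 summit, an unlike measure, and its effect on the ratio was not tested. Across all 1447 sites, the DDX5 pileup went with the IgG level (Spearman's rho 0.597) and with the input level (0.641) more closely than with the Fra-1 pileup (0.299). All of these values share their libraries, sites, copy number and ease of alignment, and the DDX5 call itself depends on input, so the correlations describe the lists and were not tested.

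The folds of Fra-1 and DDX5 were only weakly related among the common sites, less than their pileups. Every site had to pass the DDX5 call over input, which removes low DDX5 folds and narrows their range. Percentiles 5 and 95 of the DDX5 fold were 2.92 and 6.09. The effect of this cut on the relation was not tested. Ranked into 5 equal groups by Fra-1 fold over input, the sites had median DDX5 folds of 4.06, 3.94, 4.07, 4.06 and 4.35 from the lowest group to the highest, while the median Fra-1 fold went from 6.56 to 28.5. The rank correlation over the 1447 sites was 0.124 between the folds over input, which share the input library, and -0.077 between the Fra-1 fold over IgG and the DDX5 fold over input. Ranked instead by DDX5 fold, the 5 groups had median Fra-1 folds over input of 13.8, 14.9, 15.1, 16.04 and 16.4, and the highest DDX5 group had the lowest median Fra-1 fold over IgG, 6.32, against 7.33 to 7.74 in the others. That highest DDX5 group also had the highest median ratio of IgG to input level, 2.83, against 1.87 in the lowest. Input is the denominator of both the ranking and this ratio. The median IgG level was 11 in both groups, while the median input level was 6.68 in the lowest and 4.18 in the highest.

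**Figure D2:**
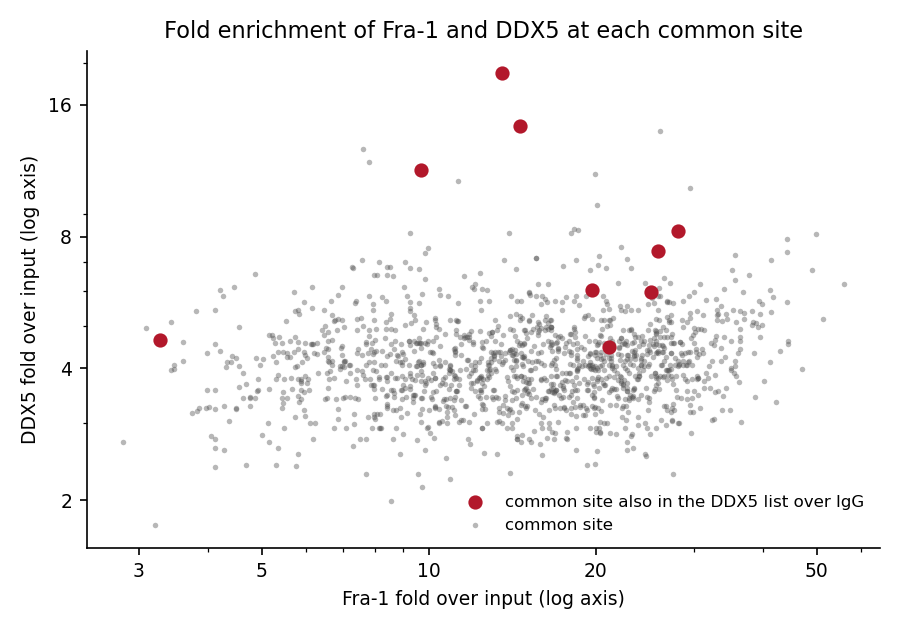
DDX5 fold over input against Fra-1 fold over input on log axes, 1 point for each of the 1447 common sites; red points are the 9 sites that also overlap a DDX5 peak over IgG. The cloud is flat, with DDX5 near 4-fold over the whole range of Fra-1, and the 3 highest red points, at 11.4-fold to 18.9-fold for DDX5, have Fra-1 folds of only 9.69 to 14.6. Fra-1 sites without a called DDX5 peak are absent by the rule, which narrows the range of DDX5 folds.

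The site that stood highest in the 3 lists together, by the sum of its ranks, lay on chromosome 6, 4358776 to 4359481. It had 228 Fra-1 fragments and 22 DDX5 fragments, against 5.0 for IgG and, at the depth of the Fra-1 library as for all input levels of single sites, 3.1 for input, that is 55.9-fold and 33.8-fold for Fra-1 over input and IgG, and 6.25-fold for DDX5. It also led all common sites in Fra-1 fold over input. The next was on chromosome 17, 69971785 to 69972623, with 143 Fra-1 and 24 DDX5 fragments, at 35.1-fold, 21.2-fold and 6.70-fold in the same order. The following pair were on chromosome 7, 80352003 to 80352521, at 37.7-fold, 17.7-fold and 6.54-fold, and on chromosome 2, 85122166 to 85122686, at 35.6-fold, 18.5-fold and 6.36-fold. At all 4 of these sites the Fra-1 pileup was between 5.14 and 9.19 times the DDX5 pileup at equal depth.

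The rest of the leading 10 had the same shape, a tall Fra-1 peak over a DDX5 peak several times lower. The site on chromosome 20, 11242003 to 11242803, had the tallest pileups among them, 257 for Fra-1 and 41 for DDX5, and also the highest IgG level, 14.0. Fra-1 there was 44.2-fold over input and 15.2-fold over IgG, and DDX5 7.89-fold. On chromosome 22, 46409316 to 46410200, the folds were 39.3 and 19.98 for Fra-1 and 5.71 for DDX5. On chromosome 17, 75318949 to 75319571, they were 41.7, 17.6 and 5.82. A wider site of 1512 bp on chromosome 14, 102745325 to 102746836, had 35.6, 15.6 and 7.28. The last pair were on chromosome 5, 77175469 to 77176318, with 51.3, 26.5 and 5.19, and on chromosome 4, 169508333 to 169509517, with 32.9, 20.5 and 5.78. None of the 10 was listed for DDX5 over IgG.

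The sites with the highest Fra-1 fold over input and over IgG were partly different ones, and their IgG levels differed. After the sites on chromosomes 6 and 5 just named, the highest fold over input was at chromosome 11, 65686254 to 65687057, with 199 Fra-1 and 35 DDX5 fragments. Its IgG level was 28.0 against an input level of 3.02, so Fra-1 was 49.7-fold over input and 6.10-fold over IgG. Chromosome 1, 115721762 to 115722775, followed with 288 Fra-1 and 35 DDX5 fragments, an IgG level of 18.0 and Fra-1 folds of 49.0 and 13.5. On chromosome 12, 66050375 to 66051110, 210 Fra-1 fragments met 15 DDX5 fragments, the largest excess of Fra-1 over DDX5 at any common site, 12.4 times.

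Over IgG the highest common site was on chromosome 2, 224413894 to 224414351. It had 159 Fra-1 and 16 DDX5 fragments, against an IgG level of 3.0 and an input level of 3.48, and its Fra-1 folds of 35.7 over input and 35.4 over IgG were nearly equal. The same held on chromosome 3, 114958459 to 114959026, with Fra-1 at 25.5-fold and 29.0-fold and DDX5 at 4.49-fold. It held too on chromosome 21, 26742552 to 26743093, with Fra-1 at 30.6-fold and 28.7-fold and DDX5 at 3.81-fold. At these 3 sites IgG stood at 0.819 to 1.05 times input, below the ratio of 1.07 that marks percentile 5 of the common sites. The sites on chromosomes 6 and 5 named above were also among the leading 5 over IgG, with ratios of 1.82 and 2.15. The IgG level is the denominator of the fold that ranked these sites, so a low level follows in part from the ranking.

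The sites with the highest DDX5 folds were of another kind. The leading 5 were 1037 to 2654 bp wide, with pileups of 65 to 117 for Fra-1 and 70 to 99 for DDX5. Fra-1 was at most 3.22-fold over IgG, at its summit in the list over IgG. The highest, on chromosome 4, 74963293 to 74965383, was 2091 bp wide and had 65 Fra-1 and 86 DDX5 fragments, against an IgG level of 18.8 at the Fra-1 summit and 37.0 at the DDX5 summit, and an input level of 3.87. DDX5 was 18.9-fold over input, and Fra-1 was 13.5-fold over input and 2.95-fold over IgG. On chromosome 19, 12904054 to 12905133, 87 Fra-1 and 70 DDX5 fragments gave Fra-1 folds of 14.6 over input and 3.12 over IgG, and a DDX5 fold of 14.4 over input. On chromosome 17, 57919352 to 57922005, 117 Fra-1 and 73 DDX5 fragments stood over an IgG level of 53.0, so Fra-1 was 26.1-fold over input and only 1.93-fold over IgG, with DDX5 at 14.0-fold. IgG there was 17.03 times input, the highest such ratio among the common sites.

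The other members of the leading 5 for DDX5 were on chromosome 10, 74032453 to 74034710, with 73 Fra-1 and 99 DDX5 fragments, and on chromosome 1, 45196173 to 45197209, with 90 and 92. Their DDX5 folds were 12.7 and 11.8, and their Fra-1 folds were 7.62 and 7.81 over input and 3.17 and 3.22 over IgG. Common sites with more DDX5 than Fra-1 fragments in the deposited lists over input numbered 6 of 1447 (0.415%, interval 0.152% to 0.900%). Among the 5152 common sites where Fra-1 was not called over IgG the share was 38.3% (37.0% to 39.7%). The rule used both pileups, so this difference is a description. The counts are not at equal depth: scaling to the IgG library, by 0.884 for Fra-1 and 0.998 for DDX5, lowers Fra-1 more.

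The DDX5 list over IgG was not part of the rule. It overlapped 9 common sites (0.622%, interval 0.285% to 1.18%), against 1 of the 13952 Fra-1 sites called over both controls without DDX5 (0.00717%, 0.000181% to 0.0399%) and 33 of the 5152 common sites not called over IgG (0.641%, 0.441% to 0.898%). The sites without DDX5 lack a DDX5 peak over input by the rule. The background was 0.141% of all Fra-1 peaks over input. The intervals of the shares overlapped between common sites with and without the Fra-1 call over IgG. Of the 61 DDX5 peaks over IgG, 4.92% reached 8-fold, and those at the 9 common sites lay between 2.28-fold and 3.62-fold. The 9 sites had a median DDX5 fold over input of 7.41 and a median width of 1080 bp, against 4.08 and 643 bp at the other 1438.

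Sorted by IgG level, 4 of the 9 had a level above 18 and DDX5 at 8.25-fold or more over input. They were the sites on chromosomes 4 and 19 named above, where DDX5 was 2.28-fold and 2.53-fold over IgG, and a site on chromosome 1, 110452758 to 110454144, with 65 Fra-1 and 69 DDX5 fragments, at 11.4-fold over input and 2.33-fold over IgG for DDX5. The last of the 4 was on chromosome 20, 62330022 to 62331564, with 223 Fra-1 and 71 DDX5 fragments. Its DDX5 peak, 4143 bp wide, covered the whole Fra-1 peak and had its summit 2511 bp away, outside the Fra-1 peak, at 8.25-fold over input and 2.48-fold over IgG.

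The remaining 5 had lower IgG levels, 7.0 to 14.0, and DDX5 folds over IgG of 2.91 to 3.62, with DDX5 summits 24 to 111 bp from those of Fra-1. On chromosome 20, 11247895 to 11248464, 292 Fra-1 and 46 DDX5 fragments gave Fra-1 17.3-fold and DDX5 3.13-fold over IgG. On chromosome 5, 57555447 to 57556117, 151 Fra-1 and 28 DDX5 fragments gave 14.9-fold and 3.62-fold over IgG. On chromosome 3, 177077481 to 177078061, with 114 and 28 fragments, the folds over IgG were 12.7 and 3.62, and at 64251679 to 64252955 on the same chromosome, with 134 and 34 fragments, they were 10.9 and 2.91. The lowest Fra-1 enrichment of the 5 was on chromosome 17, 38136878 to 38137212, with 34 Fra-1 and 30 DDX5 fragments, at 3.88-fold and 3.44-fold over IgG. All 9 sites were thus listed for both antibodies over both controls.

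The peaks of the 2 antibodies lay on top of each other. The Fra-1 summit and the nearest DDX5 summit were a median of 70 bp apart (quartiles 31 and 155 bp), 37.8% were within 50 bp and 62.2% within 100 bp, and 51 sites (3.52%) had summits over 500 bp apart. The pairs overlap by the rule, so the distance is a description. Common sites not called over IgG had nearly the same distances, with a median of 73 bp and 60.3% within 100 bp. What differed was how the peaks were nested. The DDX5 peak lay wholly inside the Fra-1 peak at 77.1% of the common sites (74.9% to 79.3%), against 21.5% (20.4% to 22.6%) of those not called over IgG. A wider peak overlaps and encloses others more easily, and Fra-1 peaks were wider at the common sites, with a median of 644 bp against 357 bp where Fra-1 was not called over IgG and 355 bp where it was called over both controls without DDX5. DDX5 peaks were narrower there, 279 bp against 355 bp at the common sites not called over IgG.

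**Figure D3:**
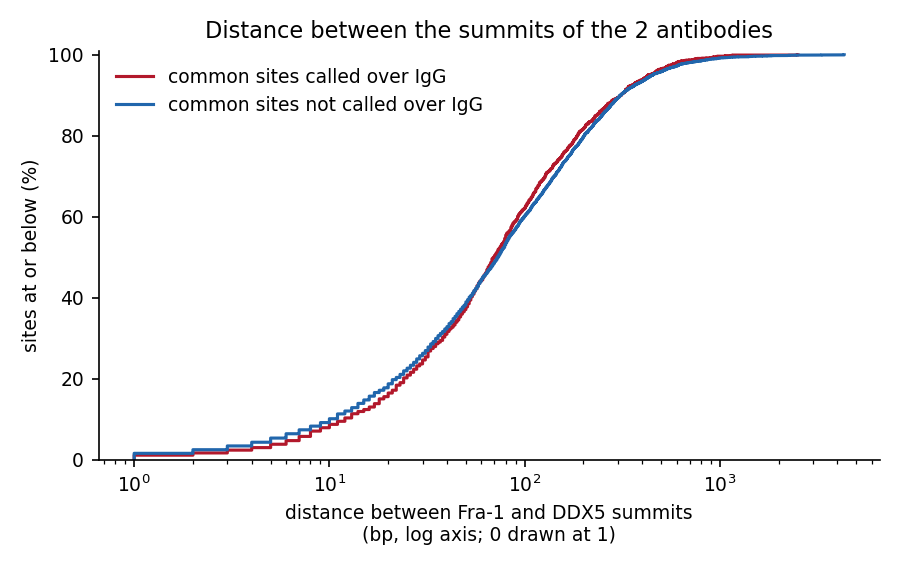
Share of sites (%) whose Fra-1 and DDX5 summits lie at or below a given distance (bp, log axis), for the 1447 common sites called over IgG (red) and the 5152 not called over IgG (blue). The curves nearly coincide, with medians of 70 bp and 73 bp.

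Distance shortened with Fra-1 strength. In the 5 groups by Fra-1 fold over input the median distance was 91.5, 88, 66, 62 and 57 bp from the lowest to the highest, and the share with the DDX5 summit inside the Fra-1 peak was 91.7% in the lowest and 99.3% in the highest. Peak width went the other way, with medians of 526.5 bp in the lowest group and 757.5 bp in the highest. In the 5 groups by DDX5 fold the median distance stayed between 67 and 74.5 bp.

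Some sites carried more than 1 peak of a list. At 113 common sites (7.81%) the Fra-1 peak overlapped at least 2 DDX5 peaks, at 7 of these at least 3, and at 96 (6.63%) it overlapped at least 2 Fra-1 peaks over IgG. The most DDX5 peaks, 4, overlapped the 2549 bp site on chromosome 10, 104153682 to 104156230, where Fra-1 was 11.3-fold over input and 2.74-fold over IgG. The widest site of all, 2719 bp on chromosome 10, 17270343 to 17273061, had 212 Fra-1 and 28 DDX5 fragments, Fra-1 folds of 27.4 and 13.5 and a DDX5 fold of 3.03. The site of 2654 bp between them in width is the one on chromosome 17 with an IgG level of 53.0.

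Few sites depended on the exact overlap limit. The smallest overlaps were 6, 7 and 9 bp, at 30048334 to 30048619 on chromosome 20, 26674142 to 26674550 on chromosome 17 and 55364058 to 55364419 on chromosome 20, with Fra-1 at 7.44-fold, 9.24-fold and 6.86-fold and DDX5 at 3.67-fold, 3.59-fold and 3.06-fold over input. Just outside the rule was a Fra-1 peak of 14.5-fold over input at 35771417 to 35771859 on chromosome 5, which missed a DDX5 peak by 5 bp. Another of 4.52-fold at 93896428 to 93897051 on chromosome 13 missed one by 6 bp, and a peak of 8.69-fold at 6662968 to 6663349 on chromosome 1 by 13 bp. In all, 21 common sites overlapped by under 100 bp, and 17 Fra-1 sites without DDX5 had a DDX5 peak within 100 bp.

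The presence of a DDX5 peak followed the IgG level also within broad classes of Fra-1 height. The 15399 Fra-1 sites called over both controls were sorted into 4 classes of Fra-1 pileup and 4 of IgG level, with ties kept together. In the class of tallest Fra-1 peaks (81 to 323 fragments), a DDX5 peak was present at 3.23% of sites (1.73% to 5.45%) with an IgG level of at most 4, at 9.20% and 13.0% in the middle classes, and at 34.8% (32.6% to 37.1%) with an IgG level above 8. Among Fra-1 peaks of 51 to 80 fragments the share was 2.10% in the lowest IgG class and 24.9% in the highest. Among those of 35 to 50 it was 0.515% and 22.8%, and among those of 14 to 34 it was 0.721% and 10.5%. The highest IgG class held 943 of the 1447 common sites (65.2%) and had a DDX5 peak at 29.5% of its sites, against 1.11% in the lowest. The Fra-1 call over IgG, the IgG level and the common sites all come from the same library of IgG, and this gradient was not tested. The pileup classes are wide, and over the common sites the Fra-1 pileup rose with the IgG level (Spearman's rho 0.362). Fra-1 height can therefore still differ between IgG classes within a pileup class. Peak width rose with the IgG level as well. Over the common sites its median was 539 bp in the lowest of 5 groups by IgG level and 733.5 bp in the highest. A wider peak overlaps others more easily, and the part of width in the gradient was not tested.

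Sorted by input level instead, the same sites showed a smaller gradient, with DDX5 at 12.1% of sites in the highest class and 7.06% in the lowest, and little of it within a class of Fra-1 pileup. For the tallest Fra-1 peaks the share with DDX5 was 23.3%, 22.97%, 17.9% and 21.2% from the lowest input class to the highest, and among the shortest it was 2.01%, 1.94%, 2.34% and 3.06%. The DDX5 peaks were called over input, so a high input level works against the call, while the IgG level plays no part in it. The gradients by IgG and by input level are therefore not a like comparison. At a given input level, taller Fra-1 peaks had a DDX5 peak more often in every class. The class in which Fra-1 and IgG were both highest held 598 of the 1447 common sites.

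**Figure D4:**
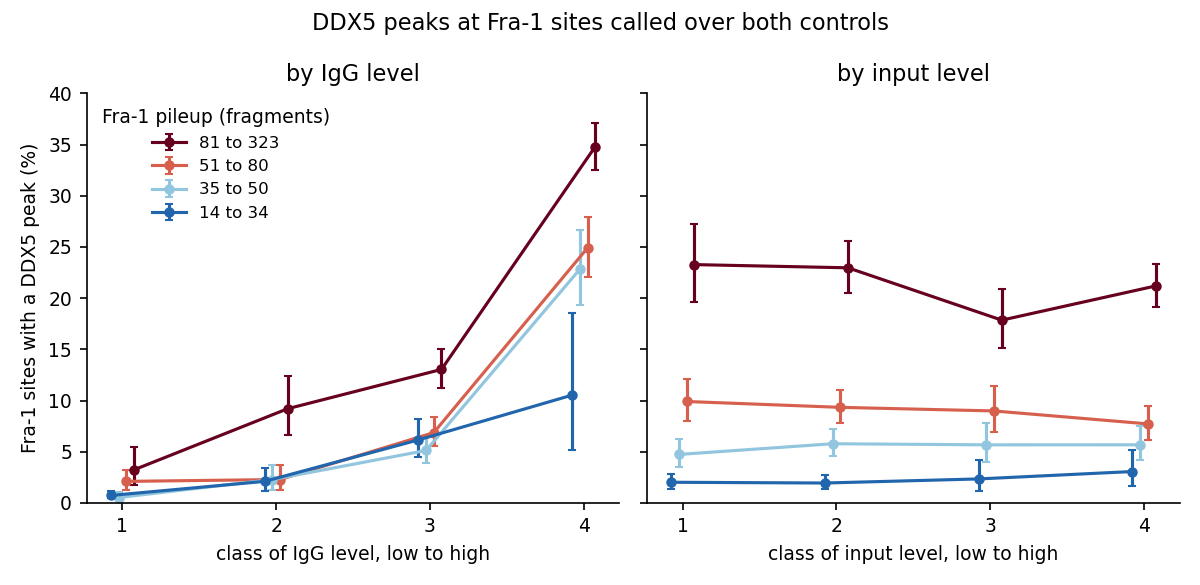
Share of Fra-1 sites called over both controls that have a DDX5 peak over input (%), by class of IgG level (left) and of input level (right), with 1 line for each class of Fra-1 pileup; bars are 95% exact binomial intervals over sites. With IgG level the line of the tallest peaks climbs to 34.8% in the highest class, against 3.23% in the lowest, and with input level it stays between 17.9% and 23.3%. The DDX5 call itself depends on the input level and not on the IgG level, so the panels are not a like comparison.

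The common sites were spread unevenly over the chromosomes. Their share of sites was higher than that of the Fra-1 sites without DDX5, with intervals that did not overlap, on 5 chromosomes (1, 8, 17, 19 and 20), and lower on 7 (2, 4, 5, 12, 13, 18 and 21). On chromosome 19 lay 70 common sites, 4.84% (3.79% to 6.07%), against 1.45% (1.26% to 1.67%) of the sites without DDX5, so that 25.6% of the Fra-1 sites called over both controls there had a DDX5 peak. On chromosome 20 lay 87, 6.01% (4.84% to 7.36%) against 2.42% (2.17% to 2.68%), and on chromosome 17 lay 79, 5.46% (4.35% to 6.76%) against 2.96% (2.69% to 3.25%). Chromosome 2 stood at the other end, with 53 common sites, 3.66% (2.76% to 4.76%), against 7.84% (7.40% to 8.30%). The common sites not called over IgG stood at 7.76% on chromosome 19 and 3.49% on chromosome 2, on the same side of the sites without DDX5. On chromosome 8 their interval (5.27% to 6.58%) overlapped that of the sites without DDX5 (5.08% to 5.84%), and on chromosome 10 they lay below those sites, at 4.11% against 5.68%, while the common sites called over IgG were at 6.22%.

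The control levels differed between these chromosomes too. The median input level of common sites was 7.74 on chromosomes 8 and 20, where the IgG level was 14.0 on both, and 4.07 on chromosome 19, where the IgG level was 9.40. On chromosome 2 the levels were 3.16 and 8.0. Fra-1 sites without DDX5 had input levels of 7.36, 6.78, 4.07 and 3.48 on chromosomes 8, 20, 19 and 2. The excess on chromosome 19 was seen at an input level below the median of all common sites, 4.84. Those on chromosomes 1, 8 and 20 were seen at a level above it, 5.81 on chromosome 1, and that on chromosome 17 at 4.84. On the 7 chromosomes with a lower share the median input level ran from 3.16 on chromosome 2 to 5.03 on chromosome 5. Levels at selected peaks do not measure copy number, and the part of copy number in these shares was not tested.

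**Figure D5:**
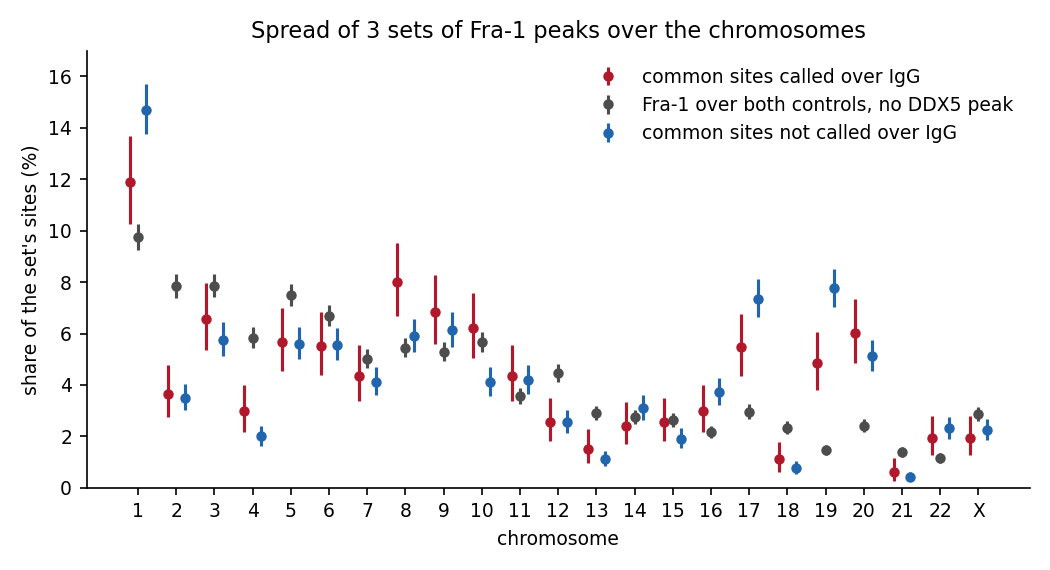
Share of each set's sites (%) on each chromosome, with 95% exact binomial intervals, for the common sites called over IgG (red), Fra-1 sites called over both controls without a DDX5 peak (grey) and common sites not called over IgG (blue). Red lies above grey on chromosomes 17, 19 and 20 and below it on chromosomes 2 and 4, and blue lies on the same side of grey as red there.

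Common sites lay near other peaks of both antibodies. Another Fra-1 peak called over both controls was present within 12.5 kb of 58.5% of them (55.9% to 61.0%), against 52.7% (51.9% to 53.5%) of the sites without DDX5. A further DDX5 peak, other than those overlapped, was present within 12.5 kb of 35.9% (33.4% to 38.4%), against 13.6% (13.1% to 14.2%). At common sites not called over IgG this last share was 53.0%. Joined to each other at up to 12.5 kb, 1152 of the common sites stood alone and 134 groups held 2 or more, 295 sites in all.

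Only 2 groups held 5 common sites at that distance. One spanned 20.4 kb of chromosome 11, 65666664 to 65687057, with Fra-1 at 10.8-fold to 49.7-fold over input and DDX5 at 3.97-fold to 8.12-fold, and ended with the site of high IgG level named above. Next to that site was another tall one at 65682634 to 65684186, with 214 Fra-1 and 33 DDX5 fragments and Fra-1 at 44.1-fold over input and 11.9-fold over IgG. The other group spanned 15.7 kb of chromosome 19, 1168660 to 1184318, with Fra-1 at 5.48-fold to 28.4-fold and DDX5 at 3.74-fold to 7.55-fold. With joining at up to 100 kb it grew to 10 sites over 152.4 kb, 1101499 to 1253863, the fullest stretch of common sites. A second stretch of chromosome 11, 65149556 to 65265323, held 6, with Fra-1 at 7.96-fold to 21.1-fold and DDX5 at 4.16-fold to 6.80-fold, and so did chromosome 9, 132221120 to 132319948, with 5.48-fold to 21.5-fold and 2.92-fold to 5.20-fold. These groups were singled out after their values were seen.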

How the data were processed

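The 4 deposited peak lists compare the Fra-1 or DDX5 ChIP library of BT549 cells with the input or IgG library, 1 library each, in hg19. The submitters' processing notes name CASAVA 1.8, Bowtie 0.12.9 and HOMER without their roles. No source used here names the peak caller or its settings; the columns are those of a MACS2 table. Per the file headers, the deposited signal is the pileup at the summit and the fold enrichment is a ratio over the local control. The deposited −log10 values stand under header cells that are spreadsheet errors; the second of these columns was taken as −log10 q, the largest q being 0.0495. The authors' folds, pileups and −log10 q describe and filter peaks within a list.

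Peaks were matched by position, 1 bp of overlap being enough, and a site took the matching peak with the nearest summit. Control levels were computed as the pileup plus 1 over the fold, minus 1, rounded to 2 decimals. At the IgG depth, Fra-1 values are the pileups of the deposited list over IgG, whose summit can differ from that over input. Input levels and DDX5 pileups were brought to that depth with the factors 0.884 (from 911 sites with the same summit in both Fra-1 lists) and 0.998 (from 29 such DDX5 peaks). Shares have 95% exact binomial (Clopper-Pearson) intervals and medians have binomial order-statistic intervals; both treat neighbouring sites as independent and cover no variation between libraries. Depth is unknown beyond these factors. The overlap code was tested on simulated peaks against direct comparison. Tables were handled in pandas 2.3.3 and numpy 2.4.6 under Python 3.11.15, intervals came from scipy 1.17.1 and plots from matplotlib 3.10.9.

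Sites were named by rule: the 10 with the lowest sum of fold ranks, the 5 highest in each of 3 lists, all overlapping DDX5 over IgG, the 3 widest, and 3 on each side of the overlap limit. Other named sites (dense groups, sites with more DDX5 than Fra-1, extremes of a ratio) were chosen after their values were seen. The sites and lists were chosen with earlier results of these data known. Alternatives were other overlap rules, stricter peaks, all sequences and other classes. The planned motif, promoter and gene-list analyses need hg19 sequence or annotation and were not run.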

Additional observations from a re-analysis of the deposited data

How the results depend on the processing

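No paired analysis was possible because each antibody and control is 1 library and the results come from no test. Of 30 recomputed values, 19 lay inside the 95% interval of the original, or within 1.5 times of it for a count; for a difference between shares, the interval of the higher share stood in. The 1447 common sites became 725 with centres within 100 bp, 513 with all 3 lists at or above their median −log10 q and 167 with all 3 at least 5-fold; the share of Fra-1 sites called over both controls with a DDX5 peak, 9.40%, was then 5.08%, 6.41% and 1.52% under these rules. Stricter rules lower the count by construction. They also tighten the demand on the DDX5 peak, which pulls the share down, and the size of that part was not tested. The median summit distance of 70 bp became 52 bp with centres within 100 bp, which selects for closeness, and 61 bp above the median −log10 q. The IgG level over the input level, 2.23, became 2.38 above the median −log10 q; the cause was not tested. The share with DDX5 in the highest IgG class exceeded that in the lowest by 31.6 percentage points among the tallest Fra-1 peaks, by 25.9 with 3 classes in place of 4, which widens each class, and turned to -2.09 when classes of input level replaced those of IgG level. The DDX5 call is made over input, so a high input level works against it and the last value is not a like comparison. The alternatives to the 31.6 points, to the IgG-to-input ratio and to the DDX5-to-IgG ratio, and the count with DDX5 summits inside the Fra-1 peak, were chosen after seeing the data. The motif and promoter alternatives were not run. Without read depths, no limit can be set on DDX5 at Fra-1 sites that lack a listed peak.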

Other observations

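The common site with the highest IgG level lay on chromosome 1, 236260298 to 236260802. It had 248 Fra-1 and 106 DDX5 fragments, the most DDX5 fragments of any common site, against 128 for IgG and 76.5 for input, so that Fra-1 was 3.21-fold over input and 1.71-fold over IgG and DDX5 1.75-fold over input. All 4 libraries were high there. The next highest IgG level, 58.0, was on chromosome 15, 102501526 to 102502174, where input was only 7.16 and IgG 9.16 times the input level at equal depth, with Fra-1 27.1-fold over input and 3.31-fold over IgG and DDX5 5.67-fold over input. At the site with the highest DDX5 level over IgG among those with near summits, chromosome 17, 48785150 to 48785462, 30 Fra-1 and 22 DDX5 fragments stood over an IgG level of 3.26, a DDX5-to-IgG ratio of 5.39, and no DDX5 peak over IgG was listed.

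Over all 1447 common sites, whatever the distance of the summits, the DDX5-to-IgG ratio was lowest where IgG was highest. In 5 groups by IgG level its median was 2.99 in the lowest and 1.46 in the highest, while the median DDX5 fold over input was 4.08 and 4.19 in those groups. The IgG level is the denominator of this ratio, so part of the fall follows from the ranking itself. The sites and the ranking were singled out after their values were seen.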
